A study of Mus musculus with 20 samples.

Results

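Thymic tumours of mice with intact Gfi1 were compared by their origin: 2 tumours that arose in mice with a Notch transgene after the mutagen ENU (Notch tumours) and 3 that arose after ENU without the transgene (ENU tumours). They were chosen by their labels alone, as the tumours marked WT, and they are 5 of the 20 samples of the series. All mice were C57BL/6 and carried floxed Gfi1 alleles (Gfi1 f/f), and the WT mice of both groups lacked the Mx1-Cre recombinase that would delete the gene. All were injected with ENU, an alkylating agent that causes point mutations, and watched by ultrasound for a tumour in the mediastinum. Once one grew they received pIpC, a double-stranded RNA mimic that induces interferon and switches on Mx1-Cre in carriers, and the tumour cells were taken about 2 to 3 weeks later. The Notch mice are labelled Notch tg, with the transforming agents given as Notch1-CT and ENU, so ENU and pIpC were common to both groups and the transgene was the labelled difference. The sources used here do not give the promoter of the transgene, the ages of the mice or whether the tumours of a group came from separate mice, so p-values measure the spread between these samples, which may be technical. The values are array signals, read as log2 of RNA level, from thymocytes per the labels. A difference is Notch minus ENU on that scale, given with its standard error (SE), and folds hold only if the base of the logarithm is 2.

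Notch1 encodes a surface receptor that is cut when it binds a ligand on a neighbouring cell. The released part enters the nucleus, joins the DNA-binding protein RBPJ and switches on genes such as Hes1, Hes5, Dtx1, Nrarp and Ptcra. In the thymus this signal commits progenitors to the T lineage and is needed up to the stage at which a T-cell receptor beta chain has been made, and mutations that activate Notch1 are common in T-cell leukaemia. GFI1 is a DNA-binding repressor of other genes, at work in early T cells and in the stem cells of blood.

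Over all probe sets the 2 Notch arrays correlated at r = 0.958 with each other, the ENU arrays at 0.952 to 0.954 among themselves, and arrays of different groups at 0.931 to 0.946, and no array of the 5 stood apart. Of 19607 genes named by the array, 12364 were bright enough to be tested. T-cell genes marked all 5 tumours: Cd3e, a chain of the T-cell receptor complex, lay between 13.61 and 13.79 in the tumours and at a mean of 13.87 in untreated WT thymocytes (n = 2). Thy1, a surface protein of thymocytes, lay between 12.92 and 13.62 in the tumours. Among the defining markers of other cells, Emr1 (macrophages), S100a8 and Ngp (granulocytes), Alas2 (erythroid cells) and Foxn1, Psmb11 and Epcam (thymic epithelium) were too dim to be tested. The tumours labelled Gfi1 KO served only as a second look at the same contrast, and 2 facts limit them. The library labelled KO Notch 2 stood apart, with r = 0.87 to the other KO Notch array, a mean over the B-cell list of 12.26 against 9.02 to 9.70 in the other 4 KO tumours, and Notch1 at 11.06 against 12.08 to 13.52. The 3 ENU tumours labelled KO had Gfi1 at 9.66 to 9.79, while the WT ENU tumours had 9.67 to 10.18, so the array does not show the loss of Gfi1 in them and the sources used here do not say whether its probe sets lie in the deleted part.

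The transgene and the intact gene were looked at first. Notch1 was high in all 5 tumours: its gene level was 13.48 and 12.81 in the Notch tumours, 12.90, 12.95 and 12.46 in the ENU tumours, and 10.93 and 10.96 in untreated WT thymocytes. The ranges of both tumour groups overlapped, and the difference was 0.38 ± 0.26 (limma, adjusted p = 0.535). Of its 35 probe sets, 34 were higher in all 5 tumours than in both thymocyte arrays, but between the tumour groups 5 did not overlap upwards and 1 downwards, none passed the threshold, and differences ran from -0.72 to 1.11. For comparison, 20 of all 167016 probe sets passed it, 0.012%. Of all genes tested, 12.8% were higher and 22.5% lower in the Notch tumours without overlap. The shares of all probe sets apart between the groups, or apart from thymocytes, were not counted. The labels do not say which part of Notch1 the transgene holds, so a probe set outside that part checks nothing. Gfi1 was present in both groups, at 9.75 and 9.73 in the Notch tumours and at 10.01, 10.18 and 9.67 in the ENU tumours, against a mean of 10.53 in thymocytes. Its 8 probe sets differed between the groups by -0.54 to 0.42 with none past the threshold, and 6 of the 8 were lower in every tumour than in both thymocyte arrays.

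**Figure D1:**
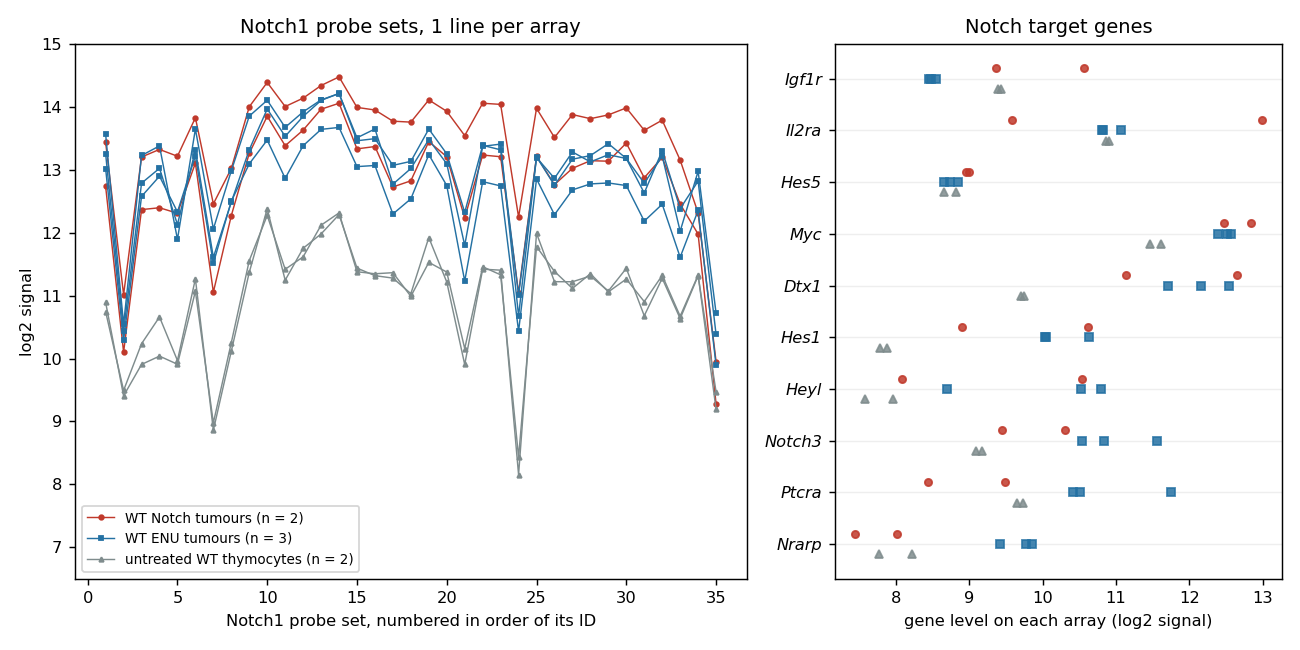
Left, log2 signal of the 35 Notch1 probe sets (numbered by their identifier), 1 line per array: the lines of the Notch and ENU tumours interleave, and both lie above the untreated WT thymocytes in 34 probe sets. Right, gene level (log2 signal) of 10 Notch target genes on each array, with the same colours and symbols: Nrarp, Ptcra and Notch3 were lower in both Notch tumours than in all ENU tumours, Igf1r and Hes5 were higher, and the others overlapped.

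Notch target genes had no common direction. Of the 24 tested members of a list of Notch targets, none passed the threshold in either direction, 4 were higher and 4 lower in both Notch tumours than in all 3 ENU tumours, and the median difference was 0.09. Over all 12364 genes, 12.8% were higher in that sense and 22.5% lower, and the median was -0.05. The sign of the list's median turned between alternatives, from -0.12 to 0.25. At an unadjusted p under 0.05 limma counted 2 higher and 3 lower members.

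Some targets of Notch were lower in the WT tumours with the transgene. Nrarp, which is induced by Notch and feeds back on it, was at 8.01 and 7.44 in the Notch tumours and at 9.41, 9.77 and 9.85 in the ENU tumours. The Notch tumours thus lay near the thymocyte mean of 8.0 and the ENU tumours above it, with a difference of -1.95 ± 0.23 that missed the threshold (limma, adjusted p = 0.0692). Ptcra, the invariant chain that pairs with the first beta chain, was at 8.44 and 9.49 against 11.76, 10.51 and 10.41, a difference of -1.93 ± 0.50 (limma, adjusted p = 0.207). Notch3, itself a receptor and a target, was at 10.30 and 9.44 against 11.56, 10.83 and 10.54 (limma, adjusted p = 0.287). In all 3 genes every WT Notch array was below every WT ENU array, and none passed the test. In the tumours labelled KO the groups overlapped for all 3. Nrarp was at 9.896 and 7.865 in their Notch tumours and at 8.048, 7.375 and 9.806 in their ENU tumours. The differences there were 0.47 ± 0.92 for Nrarp, -0.26 ± 0.71 for Ptcra and -0.67 ± 0.71 for Notch3. Igf1r, the receptor for insulin-like growth factor, went the other way, at 9.36 and 10.56 against 8.55, 8.45 and 8.47, a difference of 1.47 ± 0.34 (limma, adjusted p = 0.185). Rasgrp1, which activates Ras below the T-cell receptor, was at 13.36 and 13.03 against 12.19, 12.32 and 12.27, a difference of 0.93 ± 0.15 (limma, adjusted p = 0.118). Igf1r and Rasgrp1 also overlapped in the tumours labelled KO, with differences of -0.15 ± 0.26 and -0.50 ± 0.38.

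Other well known targets overlapped between the groups or differed little. Dtx1, a regulator of Notch signalling, was at 12.64 and 11.13 in the Notch tumours and at 12.54, 12.16 and 11.70 in the ENU tumours, all above the thymocyte mean of 9.73. Hes1, a repressor, was at 10.62 and 8.90 against 10.03, 10.63 and 10.04, with thymocytes at 7.83. Myc, which drives growth, was at 12.84 and 12.48 against 12.57, 12.51 and 12.39, with thymocytes at 11.54. So Dtx1, Hes1 and Myc were above thymocytes in all 5 tumours, whether or not the mice had the transgene. Heyl split both groups, at 10.53 and 8.08 in the Notch tumours and 10.53, 8.69 and 10.79 in the ENU tumours. Hes5 was dim throughout, at 8.96 and 9.0 against 8.66, 8.84 and 8.74, a difference of 0.23 ± 0.13 (limma, adjusted p = 0.453). Hey1 was too dim to be tested, with 7.0 to 7.49 in the tumours. Of 26 tested receptors, ligands and cofactors of Notch, none was higher and 3 were lower in the Notch tumours without overlap: Notch3, the glycosyltransferase Mfng (-0.46 ± 0.17) and Fbxw7 (-0.32 ± 0.14), which marks active Notch for destruction. These 3 are 11.5% of the list, below the 22.5% of all genes that were lower without overlap.

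RBPJ binds the letters GTGGGAA, and these were looked for on both strands (TTCCCAC is the same on the other strand) in the 300 bases that run from 250 before to 50 after each transcript start in RefSeq, build GRCm38.p6. Of 27025 genes with such a window, 1958 held the letters, 7.25%. Of the 25 Notch targets with a window 4 did, 16%, namely Bcl2a1a, Cr2, Hes5 and Hey2. Of the 15 genes with a window among those that passed the test below, 1 did, 6.67%, namely Clip3. The 250 bases before the start are shown for Hes5, a target that carries the letters at 2 places (in capitals) and was hardly different between the groups, and for Cryba1, the gene with the largest difference in signal, whose window has none. The first lies on the plus strand at chr4:154960673-154960922 and the second on the minus strand at chr11:77725294-77725543, both written 5′ to 3′ along the gene.
Hes5: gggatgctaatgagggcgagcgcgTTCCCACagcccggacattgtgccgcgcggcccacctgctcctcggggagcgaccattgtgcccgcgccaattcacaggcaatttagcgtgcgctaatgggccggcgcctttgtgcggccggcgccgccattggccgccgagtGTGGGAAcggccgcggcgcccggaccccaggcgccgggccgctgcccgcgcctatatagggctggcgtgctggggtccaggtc
Cryba1: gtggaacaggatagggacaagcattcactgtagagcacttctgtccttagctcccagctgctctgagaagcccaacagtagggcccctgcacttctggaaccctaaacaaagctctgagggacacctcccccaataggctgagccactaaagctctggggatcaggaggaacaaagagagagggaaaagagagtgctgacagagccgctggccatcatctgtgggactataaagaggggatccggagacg
A match is a description of the letters and no evidence of binding.

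Across all genes few differences passed the test. With limma and a Benjamini-Hochberg adjusted p under 0.05, 17 of 12364 genes passed (0.137%): 12 were higher in the Notch tumours (0.0971%) and 5 lower (0.0404%). At an unadjusted p under 0.05 there were 488 higher (3.95%) and 1316 lower (10.6%). The split depended on the scaling: after a further quantile normalization 14 were higher and 3 lower, with higher genes making up 43.8% rather than 27.1% of those at an unadjusted p under 0.05. Centring probe sets on the 5 arrays gave 13 higher and 9 lower. The calls also rested on each array. Without Notch 1, Notch 2 or ENU 2 no gene passed in limma (982, 1331 and 2046 genes had an unadjusted p under 0.05), without ENU 1 there were 7 higher and 6 lower, and without ENU 3 there were 4 and 5. A fit on all 10 tumours, WT and KO, called 2 higher and 1 lower, and a fit on all 20 arrays 105 and 165. Of the 17 genes, 8 of the 12 higher ones lay above the filter level (the 40th percentile of an array, 7.87 to 8.0) on both Notch arrays and on no ENU array: Cryba1, Apod, Ms4a4b, Dst, Samd9l, Tes, Tle1 and Epha2. Bst1 lay above it on the ENU arrays alone. These genes entered the test only through the group where they were bright, so their dim side may be background and their differences depend on it. Groups without overlap and more than 2-fold apart were found in 122 genes higher (0.987%) and 216 lower (1.75%).

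**Figure D2:**
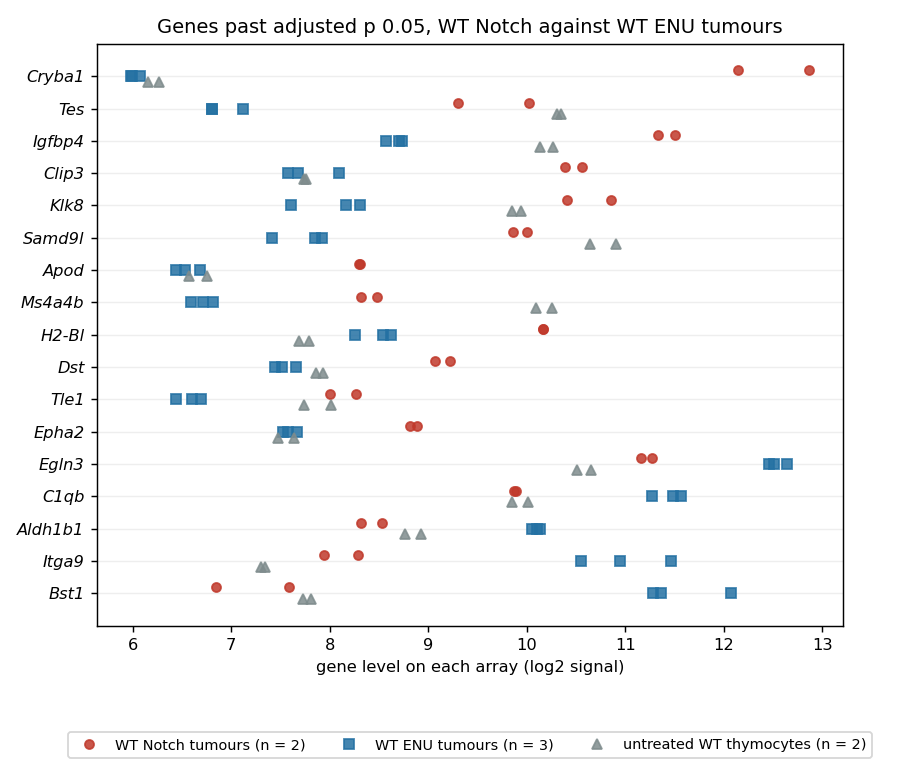
Gene level (log2 signal) of the 17 genes past an adjusted p of 0.05 on each array of the Notch tumours (circles, n = 2), the ENU tumours (squares, n = 3) and untreated WT thymocytes (triangles, n = 2, not in the test). Circles and squares do not overlap in any of the 17, and Cryba1 and Bst1 have the widest gaps; levels can be compared along a line, not between genes.

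**Figure D3:**
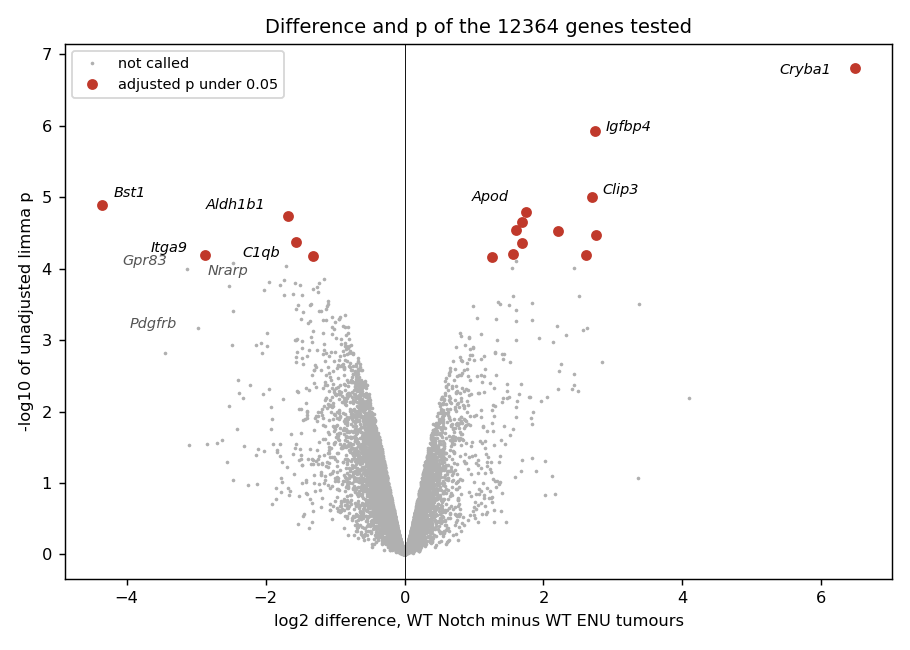
Difference (log2, Notch minus ENU tumours) against -log10 of the unadjusted limma p for the 12364 genes tested, with the 17 past an adjusted p of 0.05 in red. Cryba1 stands alone on the right at 6.48, and more grey points spread to the left (1316 lower against 488 higher at an unadjusted p under 0.05).

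The largest difference in signal was in Cryba1, which encodes beta-crystallin A1, a structural protein of the eye lens. It was at 12.14 and 12.86 in the Notch tumours and at 5.99, 6.08 and 5.99 in the ENU tumours, while untreated thymocytes had 6.26 and 6.15. The gene was thus bright in both Notch tumours and as dim in the ENU tumours as in thymocytes. The difference in signal was 6.48 ± 0.23 with all 7 of its probe sets higher (limma, adjusted p = 0.00195). Since all 3 ENU arrays were below the filter level, this is a contrast with a signal that may be background: with the ENU arrays set at that level it was 4.59, or 24-fold. The tumours labelled KO showed the same split: Cryba1 was at 13.07 and 11.21 in their 2 Notch tumours and at 6.23, 6.19 and 6.14 in their 3 ENU tumours, a difference of 5.95 ± 0.55 in arrays that the WT comparison did not use (limma, adjusted p = 0.262 in that fit, where no gene passed).

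Igfbp4, a secreted protein that binds insulin-like growth factors, was at 11.33 and 11.50 in the Notch tumours and at 8.57, 8.71 and 8.74 in the ENU tumours. Thymocytes, at 10.20, lay between the groups, and the gene rose by 2.74 ± 0.14 (limma, adjusted p = 0.0073). Clip3, a protein that links membranes to microtubules, was at 10.39 and 10.56 against 8.09, 7.58 and 7.68, with thymocytes at 7.75. The Notch tumours lay above thymocytes and the ENU tumours on both sides of them, and the gene was 2.69 ± 0.19 higher in the Notch tumours (limma, adjusted p = 0.0376). Tes, a LIM domain protein of cell adhesions, was at 10.03 and 9.30 against 7.12, 6.81 and 6.81, a difference of 2.75 ± 0.25 (limma, adjusted p = 0.0425). Here the Notch tumours were nearer to thymocytes, at 10.32, and the ENU tumours were low. Klk8, a secreted serine protease, was at 10.40 and 10.86 against 8.16, 7.60 and 8.31, a difference of 2.61 ± 0.26 (limma, adjusted p = 0.0497).

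Samd9l, an interferon-induced gene, was at 9.86 and 10.01 in the Notch tumours and at 7.42, 7.92 and 7.86 in the ENU tumours, with thymocytes at 10.77 (difference 2.20 ± 0.19, limma, adjusted p = 0.0411). Ms4a4b, a membrane protein of T cells, was at 8.32 and 8.48 against 6.71, 6.60 and 6.82, and thymocytes were higher than either group at 10.17 (difference 1.69 ± 0.14, limma, adjusted p = 0.0398). Both genes were thus lowest in the ENU tumours. Tle1, a co-repressor that works with proteins of the HES family, was at 8.27 and 8.01 against 6.60, 6.70 and 6.44, with thymocytes at 7.87 (difference 1.56 ± 0.15, limma, adjusted p = 0.0497). H2-Bl, a gene of the MHC class I region, was at 10.16 on both Notch arrays and at 8.55, 8.25 and 8.62 in the ENU tumours (difference 1.69 ± 0.16, limma, adjusted p = 0.0457). Class I genes are near copies of each other, so its 2 probe sets may also catch related transcripts. The other 3 that rose were Apod, a lipid-binding protein (1.75 ± 0.14), Dst, a large linker of the cytoskeleton (1.61 ± 0.14, higher in 80 of 82 probe sets), and Epha2, an ephrin receptor (1.26 ± 0.13). In thymocytes they were at 6.66, 7.90 and 7.56, below both Notch tumours. With the ENU arrays set at the filter level the differences of the dimmest, Tle1, Apod and Ms4a4b, were 0.22, 0.39 and 0.48.

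Among the 5 genes that fell, Bst1 fell most. It encodes CD157, a surface enzyme of the ADP-ribosyl cyclase family first described on bone marrow stromal cells. It was at 6.85 and 7.59 in the Notch tumours and at 11.28, 12.07 and 11.36 in the ENU tumours, with thymocytes at 7.77. The ENU tumours therefore stood above the Notch tumours and thymocytes, and the difference in signal was -4.35 ± 0.33, with 9 of 10 probe sets lower (limma, adjusted p = 0.0376). With the Notch arrays set at the filter level, which both lay below, it was -3.60, or 12.1-fold. Itga9, the alpha 9 integrin chain, was at 8.29 and 7.94 against 11.47, 10.55 and 10.94, a difference of -2.87 ± 0.29 in which all 28 probe sets were lower (limma, adjusted p = 0.0497). Thymocytes, at 7.32, again lay with the Notch tumours. Aldh1b1, a mitochondrial aldehyde dehydrogenase, was at 8.32 and 8.53 against 10.10, 10.05 and 10.13 (difference -1.67 ± 0.13, limma, adjusted p = 0.0376). Egln3, a prolyl hydroxylase of the oxygen-sensing pathway, was at 11.16 and 11.27 against 12.51, 12.64 and 12.46 (difference -1.32 ± 0.13, limma, adjusted p = 0.0497). The last one, C1qb, is described with the macrophage genes.

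The next genes in order of p among those lower in the Notch tumours did not pass. Masp1, a protease of the complement system, was at 7.02 and 6.91 against 8.95, 9.62 and 9.73 (limma, adjusted p = 0.0537). Gpr83, a G protein-coupled receptor, was at 8.45 and 7.91 against 10.74, 11.40 and 11.79 (limma, adjusted p = 0.0538). Usp44, Odz4 and Gas2l3 differed by -1.70, -1.17 and -1.74, with adjusted p-values from 0.0538 to 0.0692 in limma. On both Notch arrays Masp1, Usp44 and Odz4 lay below the filter level, so they were tested only through the ENU arrays. Their dim side may be background, and their differences depend on it. In thymocytes the 5 genes were at 6.77 (Masp1), 8.78 (Gpr83), 7.20 (Usp44), 7.53 (Odz4) and 8.89 (Gas2l3), nearer to the Notch tumours in each case. Some differences over 4-fold came with more spread, and were picked after their values were seen. Slc15a2, a peptide transporter, was at 10.86 and 10.59 in the Notch tumours and at 5.34, 8.75 and 5.79 in the ENU tumours, with thymocytes at 10.90 (limma, adjusted p = 0.19). Kdm5b, a histone demethylase, was at 11.22 and 10.41 against 9.0, 7.62 and 7.29, with thymocytes at 11.20 (limma, adjusted p = 0.143). Both were low in the ENU tumours relative to thymocytes, to different degrees in each.

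Of the 17 genes past the threshold, the Notch mean was nearer than the ENU mean to untreated WT thymocytes in 11, or 64.7%. Among the genes that did not overlap and differed more than 2-fold, this held for 77 of the 122 higher ones (63.1%) and 173 of the 216 lower ones (80.1%), against 55.1% of all genes tested. These are counts with no test, and the thymocytes were not given ENU or pIpC as far as the labels say.

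Genes of cell division were lower in the Notch tumours as a group. Of 38 tested mitosis genes, 31 were lower in both Notch tumours than in all 3 ENU tumours and none was higher, against 22.5% and 12.8% of all genes, and the median difference was -0.54 against -0.05. No member passed the threshold, and 28 had an unadjusted p under 0.05. Nek2, a kinase that splits centrosomes, was at 9.26 and 9.44 against 10.27, 10.21 and 10.35 (difference -0.93 ± 0.13, limma, adjusted p = 0.0929). Foxm1, a transcription factor of mitotic genes, was at 10.94 and 10.89 against 11.88, 11.74 and 11.70 (difference -0.85 ± 0.13, limma, adjusted p = 0.103). Kif4 and Espl1, a chromosome motor and the protease separase, differed by -0.88 and -0.92. The mean over the list was 10.49 and 10.76 in the Notch tumours, 11.12 to 11.20 in the ENU tumours and 10.26 to 10.38 in untreated thymocytes, so both tumour types were above thymocytes. In the tumours labelled KO the order was not the same: the mean was 10.86 and 9.58 in the Notch tumours and 10.33 to 10.71 in the ENU tumours, with KO Notch 1 above all of them and KO Notch 2, the library that stood apart, below. In a bulk sample fewer dividing cells and less RNA per cell cannot be told apart, and this holds for every gene group that follows.

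Genes of growth and metabolism were also more often lower than higher in the Notch tumours, with medians nearer to 0. The shares to set them against are the 22.5% of all genes that were lower without overlap and the 12.8% that were higher. Of 45 DNA replication genes 30 (66.7%) were lower without overlap and none was higher (median -0.34), led by Cdc45l, a component of the replication helicase, at 9.76 and 9.91 against 10.47, 10.54 and 10.50 (limma, adjusted p = 0.143). Of 19 cholesterol synthesis genes 11 (57.9%) were lower and none higher (median -0.49), among them Insig1, a sensor of sterols (-0.77 ± 0.13), Sqle, a rate-limiting enzyme (-1.29 ± 0.36), and Srebf2, the pathway's transcription factor (-0.84 ± 0.21). Oxidative phosphorylation had 17 of 35 lower (48.6%, median -0.29), glycolysis 8 of 19 (42.1%, median -0.36), and Myc network and ribosome biogenesis genes 15 of 38 (39.5%, median -0.19), and none was higher in any of these 3 lists. Amino acid synthesis and ATF4 stress genes had 13 of 25 lower (52%, median -0.38). In that list Asns, which makes asparagine, ran from 10.14 to 12.62 in the ENU tumours and was at 9.54 and 8.35 in the Notch tumours (limma, adjusted p = 0.255). Untreated thymocytes were below all 5 tumours in the mean of the replication list (9.96 to 10.04) but not of the oxidative phosphorylation list, where they were at 10.91 to 10.99, between the Notch tumours (10.64 and 10.83) and the highest ENU tumour (11.09). No member of these lists passed the threshold. The medians of all 6 and of the mitosis list stayed below 0 in every alternative for the WT contrast. The tumours labelled KO did not repeat the fall. KO Notch 1 was above every ENU tumour labelled KO in the means of the replication, oxidative phosphorylation, Myc network and amino acid lists. It was within their range for cholesterol and glycolysis, and KO Notch 2 was within it for all 6. For replication the means were 10.65 and 9.40 in the Notch tumours and 9.36 to 10.43 in the ENU tumours.

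Cell-cycle regulators moved in both directions. Ccnd2, cyclin D2, which starts the cycle, was at 11.37 and 10.49 in the Notch tumours and at 7.94, 9.18 and 8.91 in the ENU tumours, with thymocytes at 11.57 (difference 2.25 ± 0.44, limma, adjusted p = 0.148). Ccnd1, cyclin D1, had overlapping values of 8.96 and 10.89 against 12.03, 10.80 and 11.38. Cdkn2c, an inhibitor of the kinases that work with D cyclins, was at 8.88 and 9.40 against 10.14, 10.22 and 10.45 (limma, adjusted p = 0.131). Cdkn1a, the p53-induced inhibitor p21, was at 7.82 and 7.87 against 8.59, 11.86 and 11.20, so it was high in 2 of the 3 ENU tumours (limma, adjusted p = 0.287). Both Notch arrays lay below the filter level for Cdkn1a. Cdkn2a, the locus of p16 and p19Arf, was at 7.86 and 7.83 against 9.54, 7.77 and 7.92, above the rest in ENU 1 alone. The list of p53 targets as a whole had 4 members higher and 7 lower without overlap out of 31 (12.9% and 22.6%), next to the 12.8% and 22.5% of all genes, with a median of -0.03.

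**Figure D4:**
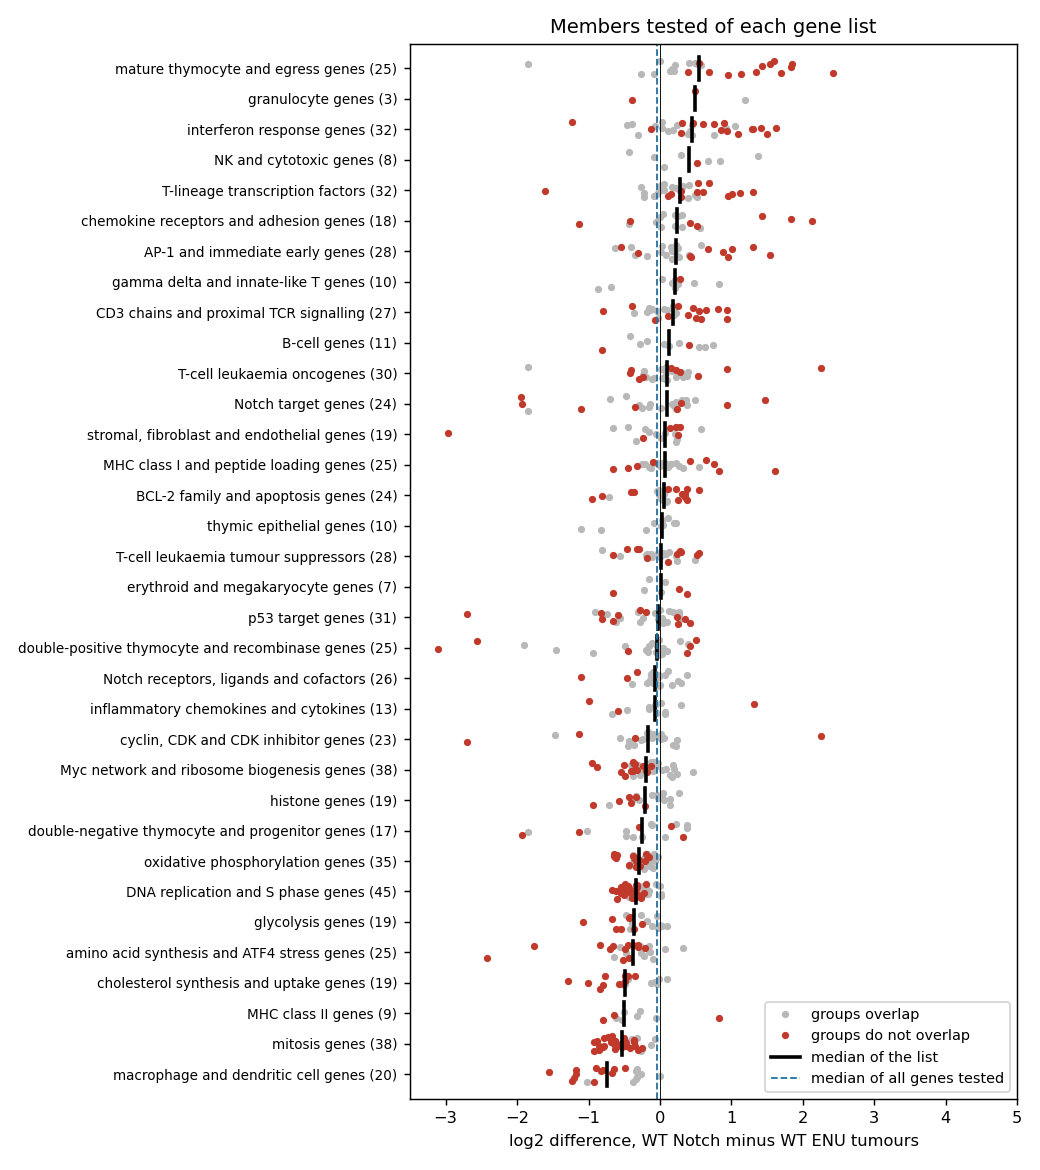
Difference (log2, Notch minus ENU tumours) of each tested member of the gene lists, 1 line per list with the number tested in brackets, ordered by the list's median (black bar). Red points are genes whose Notch and ENU arrays do not overlap, and the dashed line is the median of all genes tested, -0.05; mature thymocyte and interferon genes lie mostly to the right of it, and mitosis and macrophage genes to the left.

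Genes that mark mature thymocytes and their exit from the thymus were more often higher than lower in the Notch tumours. Differences in the list ran from -1.85 to 2.42. The lowest was that of Il7r (-1.85 ± 1.17), with overlapping groups. Of 25 tested, 13 (52%) were higher without overlap, against 12.8% of all genes, and none was lower, against 22.5%; the median difference was 0.55, and 1, Ms4a4b, passed the threshold. Klf2, the transcription factor that switches on the exit programme, was at 10.91 and 10.61 against 9.17, 9.09 and 9.38, with thymocytes at 10.41 (difference 1.54 ± 0.17, limma, adjusted p = 0.0538). S1pr1, its target and the receptor that draws T cells into the blood, was at 9.61 and 8.90 against 7.10, 7.57 and 7.59, with thymocytes at 9.79 (limma, adjusted p = 0.0929). Every ENU array lay below the filter level for S1pr1, so its dim side may be background. Ccr7, a chemokine receptor of mature T cells, was at 10.54 and 11.42 against 9.56, 9.62 and 9.49, with thymocytes at 11.86 (limma, adjusted p = 0.14). For these 3 genes the ENU tumours were thus all below thymocytes. The Notch tumours were above thymocytes for Klf2 and below them for S1pr1 and Ccr7, with Notch 1 nearer to the ENU mean than to the thymocyte mean for Ccr7. Gimap6, a GTPase of lymphocytes, was at 11.68 and 11.93 against 10.27, 10.42 and 10.68 (limma, adjusted p = 0.0806). The list's median stayed above 0 in every alternative, from 0.37 to 0.80. In the tumours labelled KO the list mean was 10.17 and 10.99 in the Notch tumours and 10.50 and 10.68 in 2 of the ENU tumours, with the other ENU tumour level with KO Notch 2, so KO Notch 1 was the lowest and no separation was seen.

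Genes of T-cell receptor signalling had more members higher than lower. Of 27 tested, 11 were higher (40.7%, against 12.8% of all genes) and 3 lower (11.1%, against 22.5%) without overlap (median 0.18), and none passed. Besides Rasgrp1, Prkcq, a kinase of the receptor's signalling complex, was at 11.87 and 11.88 against 11.31, 11.11 and 11.26, and Trat1, an adaptor, at 11.20 and 11.09 against 10.01, 10.55 and 10.05. Lcp2, the adaptor SLP-76, differed by 0.55 ± 0.14. In the tumours labelled KO the list lay the other way. Its mean was 11.205 in KO Notch 1 and 10.241 in KO Notch 2, the library that stood apart. In the ENU tumours labelled KO it was 11.24 to 11.488. The list of AP-1 and immediate early genes had 8 of 28 higher (28.6%) and 2 lower (7.14%), with a median of 0.23. Its higher members include Klf2, counted above with the mature thymocyte genes. Egr1, Egr2 and Egr3 are counted again among the T-lineage factors below. Fos (-0.34 ± 0.35), Nr4a1 (0.21 ± 0.29), Cd69 (0.58 ± 0.55) and Dusp2 (-0.40 ± 0.30) overlapped between the groups. Egr1 was at 10.91 and 10.41 against 9.70, 8.74 and 9.62, and Egr2 at 9.15 and 9.86 against 8.59, 8.55 and 8.54, both with adjusted p-values of 0.186 to 0.205 in limma.

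T-lineage transcription factors had 12 higher (37.5%, against 12.8% of all genes) and 1 lower (3.12%, against 22.5%) without overlap out of 32 (median 0.27), with none past the threshold. The factors that fix T-cell identity differed little: Bcl11b was at 12.20 and 12.27 against 12.18, 12.31 and 12.21, Tcf7 differed by 0.30 ± 0.15, Lef1 by 0.51 ± 0.23, Ikzf1 by 0.29 ± 0.15, and Runx1 by 0.23 ± 0.16. Gata3 had overlapping values, 12.37 and 11.90 against 10.92, 12.20 and 11.80, as had Runx3 (10.88 and 10.47 against 10.98, 11.78 and 9.51) and Id2 (difference -0.23 ± 0.25). Id3, an inhibitor of E proteins that the T-cell receptor induces, was at 9.54 and 10.89 against 9.13, 9.17 and 8.99 (limma, adjusted p = 0.287). Tcf4, itself an E protein, was the lower one, at 9.30 and 9.0 against 10.62, 10.60 and 11.06 (difference -1.60 ± 0.20, limma, adjusted p = 0.0753). In the tumours labelled KO it lay the other way, at 11.02 and 11.94 in the Notch tumours and 10.22 to 10.68 in the ENU tumours. Ets1, which T cells need at several stages, was at 11.65 and 11.66 against 10.86, 11.03 and 11.25. Gfi1b, the paralogue of Gfi1, differed by 0.15 ± 0.13.

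Among the stage genes of the thymus, several differed most between the 2 Notch tumours. Rag1, the recombinase that cuts receptor genes, was at 8.20 in Notch 1 and 13.06 in Notch 2, and at 12.75, 12.26 and 12.60 in the ENU tumours. Rag2, its partner, was at 5.06 and 9.33 against 9.34, 8.46 and 8.14. Cd4 was at 9.80 and 12.43 against 11.82, 10.65 and 11.05, and Cd8a at 11.72 and 13.13 against 12.95, 12.72 and 12.10. For all 4 genes Notch 1 was the lowest of the 5 tumours. Il2ra, the CD25 surface receptor of late double-negative thymocytes, was reversed, at 12.99 and 9.58 against 10.82, 11.07 and 10.81, with Notch 1 highest and Notch 2 lowest. Ly6d was at 7.37 and 11.39 against 12.23, 12.84 and 12.39, and Dntt, which adds bases to receptor joints, at 10.66 and 11.96 against 10.91, 10.87 and 10.99. The list of double-positive genes had 3 higher and 3 lower without overlap of 25 (12% each way, against 12.8% and 22.5% of all genes; median -0.04), and its median ran from -0.54 to 0.43 between alternatives. Its mean level was 9.99 in Notch 1, 11.17 in Notch 2, 10.89 to 11.07 in the ENU tumours and 11.90 to 11.97 in thymocytes. Double-negative genes had 2 higher and 3 lower of 17 (median -0.25).

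**Figure D5:**
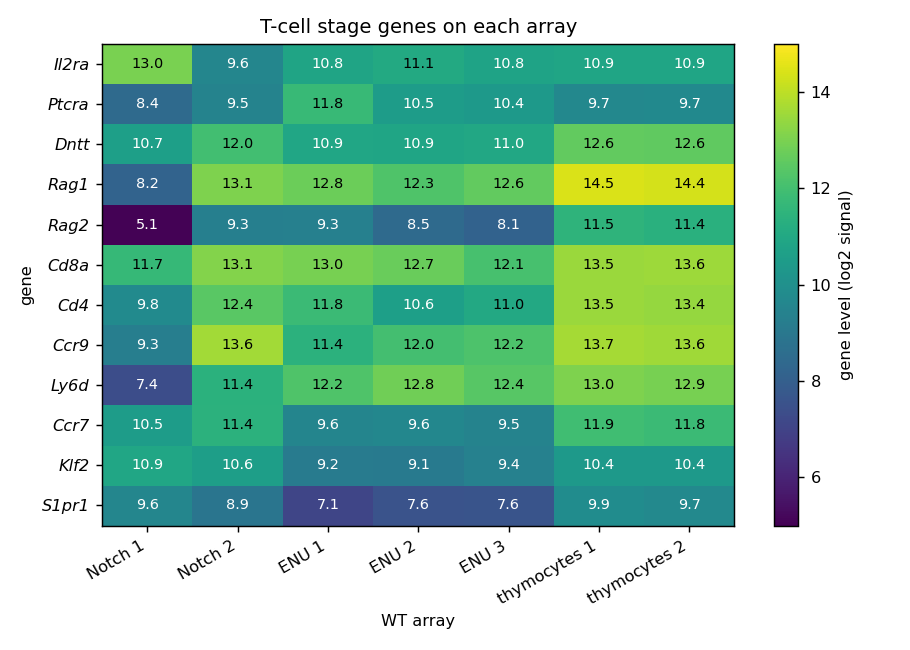
Level (log2 signal, colour and number) of 12 genes that mark stages of T-cell development on the 5 WT tumour arrays and 2 untreated WT thymocyte arrays. Notch 1 is lowest in Rag1, Rag2, Cd4, Cd8a and Ly6d and highest in Il2ra, while Ccr7, Klf2 and S1pr1 are higher in both Notch tumours than in all ENU tumours; compare along a line, not between genes.

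Tumours of the same group also differed from each other. The median range among the 3 ENU tumours was 0.34, and the median difference between the 2 Notch tumours was 0.18. A range over 3 tumours tends to be wider than a difference between 2. These values and the counts that follow therefore do not rank the groups. A range above 2 was found among the ENU tumours in 214 genes and between the Notch tumours in 89, and 45 genes spanned over 16-fold among the 5 tumours. A few were picked by this spread after their values were seen. Ccr9, a homing receptor of thymocytes, was at 9.28 in Notch 1 and 13.62 in Notch 2. Alcam, an adhesion molecule, was at 11.71 in Notch 1 and 7.65 to 7.98 in the other 4 tumours. Cacna1c, a calcium channel, was at 11.41 and 10.93 in ENU 1 and ENU 2 and at 7.26 to 7.54 in the other 3. Upk1b, a tetraspanin of the bladder lining, was at 9.53 in ENU 1, 11.38 in ENU 3 and 7.23 to 7.28 in the rest. Igh-3, an immunoglobulin heavy chain gene, was at 12.47 in ENU 3 and 11.74 in Notch 1, against 7.91 to 9.65 in the other 3.

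Interferon response genes were higher in the Notch tumours without overlap in 14 of 32 cases (43.8%, against 12.8% of all genes) and lower in 2 (6.25%, against 22.5%), with a median of 0.45 and no member past the threshold; Samd9l was not in the list. Irf7, a transcription factor of the pathway, was at 9.31 and 9.58 against 8.40, 8.52 and 8.63, and Irf9, its partner in signalling, at 10.26 and 10.74 against 9.67, 9.60 and 9.55. Trim30 was at 11.62 and 11.79 against 9.98, 10.66 and 10.57 (difference 1.30 ± 0.23, limma, adjusted p = 0.131), and Oas3, which senses double-stranded RNA, at 9.41 and 9.34 against 7.93, 8.52 and 8.38 (limma, adjusted p = 0.14). Thymocytes had a mean over the list of 9.84 to 9.95, the Notch tumours 9.47 and 9.89, and the ENU tumours 8.97 to 9.31. In the tumours labelled KO the Notch tumours, at 9.89 and 10.62, did not stand above the ENU tumours, at 10.07 to 10.66. All 5 mice had received the interferon inducer pIpC, and the sources used here do not give the exact time since then for each tumour. Genes of MHC class I and peptide loading, many of which interferon induces, had 5 higher and 4 lower of 25 (20% and 16%, the second below the share of all genes; median 0.07), with H2-Q1 at 10.45 and 10.92 against 9.14, 8.74 and 9.34 (limma, adjusted p = 0.0935).

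Markers of macrophages and dendritic cells were lower in the Notch tumours. Of 20 tested, 12 (60%) were lower without overlap, against 22.5% of all genes, and none was higher, against 12.8% (median -0.74), and 1, C1qb, passed the threshold. C1qb, a chain of complement C1q that macrophages make, was at 9.88 and 9.89 in the Notch tumours and at 11.48, 11.57 and 11.27 in the ENU tumours, with thymocytes at 9.93 (difference -1.56 ± 0.14, limma, adjusted p = 0.0457). C1qc was at 8.55 and 8.81 against 10.01, 9.70 and 10.02, and Cd68, a lysosomal protein of macrophages, at 9.96 and 9.75 against 11.09, 11.23 and 10.86 (limma, adjusted p = 0.0828 for both). Irf8 differed by -0.92 ± 0.15. The mean over the list was 8.84 and 8.91 in the Notch tumours, 9.53 to 9.73 in the ENU tumours and 9.24 to 9.34 in thymocytes. In the tumours labelled KO it was 9.29 and 11.03 in the Notch tumours and 9.80 to 11.37 in the ENU tumours, so KO Notch 1 was below all of them and KO Notch 2 was within their range. Of the defining macrophage markers, C1qa was lower in both Notch tumours (7.97 and 7.70 against 9.06, 8.59 and 8.34), Csf1r overlapped (8.32 and 8.07 against 8.22, 8.93 and 8.58), and Emr1 was too dim to be tested. The part of these cells in the other differences, the fall of Bst1 and Itga9 among them, was not tested.

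Lists of other cell types had few members apart in either direction, to be read against the 12.8% of all genes that were higher and the 22.5% that were lower. B-cell genes had 1 higher and 1 lower of 11, with a mean of 8.65 and 9.19 in the Notch tumours and 8.49 to 9.36 in the ENU tumours. NK and cytotoxic genes had 1 higher of 8, erythroid and megakaryocyte genes 2 higher and 1 lower of 7, thymic epithelial genes none of 10, and granulocyte genes 1 in each direction of 3. Stromal, fibroblast and endothelial genes had 4 higher (21.1%) and 2 lower (10.5%) of 19. One of them, Pdgfrb, a growth factor receptor of mural cells and fibroblasts, was at 8.76 and 8.65 against 11.22, 11.18 and 12.63 (difference -2.97 ± 0.46, limma, adjusted p = 0.104). Defining stromal markers did not go with it: Col1a1 was at 9.47 and 9.50 against 9.26 to 9.44, Col3a1 at 9.27 and 9.29 against 8.90 to 9.24, and Pecam1 differed by 0.23 ± 0.20.

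Genes of T-cell leukaemia were mixed. Of 30 oncogenes 6 were higher (20%) and 4 lower (13.3%) without overlap (median 0.10), and of 28 tumour suppressors 6 (21.4%) and 5 (17.9%; median 0.02). Of all genes 12.8% were higher and 22.5% lower, so the shares of lower members were under that of all genes in both lists. Phf6, a chromatin protein mutated in T-cell leukaemia, was at 10.78 and 10.27 against 9.82, 9.98 and 10.13, and Nr3c1, the glucocorticoid receptor, at 10.93 and 10.73 against 11.21, 11.45 and 11.79. Among 24 genes of apoptosis 9 were higher (37.5%) and 4 lower (16.7%), with a median of 0.05. Bid, which links death receptors to mitochondria, was at 9.88 and 9.93 against 10.65, 10.76 and 10.74 (limma, adjusted p = 0.103), Bcl2l11, the killer protein BIM, at 9.73 and 9.98 against 10.70, 10.53 and 11.18, and Bcl2, which blocks it, at 9.69 and 9.79 against 8.80, 9.40 and 9.37. Genes that promote death lay on both sides: Bid, Bcl2l11, Bak1 and Diablo were lower without overlap, while Pmaip1 (0.35 ± 0.16), Casp6 (0.31 ± 0.14), Bbc3 (0.25 ± 0.15), Hrk (0.22 ± 0.14) and Bad (0.11 ± 0.13) were higher without overlap, as were the death-blocking Bcl2, Birc2, Birc3 and Cflar. None of them passed the threshold.

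The same contrast in the tumours labelled KO, 2 Notch and 3 ENU arrays that share none with the WT comparison, called no gene of 12421 in limma, with 505 at an unadjusted p under 0.05 (4.07%). There, 7.24% of genes were higher and 10.6% lower without overlap. Of the 17 WT genes 16 were tested, 11 had the same sign and 4 were apart in the same direction: Cryba1, Clip3, Tle1 and Bst1. Bst1 was at 7.09 and 8.18 in the Notch tumours labelled KO and 9.74, 10.58 and 10.95 in the ENU tumours labelled KO, a difference of -2.79 ± 0.49. Clip3 was at 10.35 and 8.95 against 8.19, 8.64 and 7.73 (1.46 ± 0.50), and Tle1 at 8.73 and 8.02 against 6.84, 7.88 and 6.40 (1.33 ± 0.49). Igfbp4 did not repeat: it was at 11.49 and 7.28 in the Notch tumours labelled KO and at 10.75, 10.61 and 11.69 in the ENU tumours labelled KO. The low value was that of KO Notch 2, the library that stood apart. Aldh1b1 (0.62 ± 0.82), Ms4a4b (-0.41 ± 0.63), Tes (-0.08 ± 0.51) and Klk8 (-0.16 ± 0.58) also had the other sign, with overlapping groups. H2-Bl was between 7.90 and 8.28 in all 5 arrays labelled KO.

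The KO check depended on which Notch library was kept. Without the library labelled KO Notch 2, 14 of the 17 genes were tested and 7 had the same sign. Igfbp4 and Klk8 then had the WT sign (0.474 and 0.462). Itga9, Egln3, Samd9l and H2-Bl lost it (0.675, 0.451, -0.469 and -0.058), and Aldh1b1, Ms4a4b and Tes kept the other sign (1.995, -1.378 and -0.711). Without KO Notch 1, 13 were tested and 11 had the same sign, but this rests on KO Notch 2, the library that stood apart. A lone Notch array is apart from the ENU arrays more easily than 2 are, so genes apart are not counted here. Whether the difference between Notch and ENU tumours itself depended on genotype was tested as an interaction in the 10 tumours, and no gene of 13025 passed in limma (934 at an unadjusted p under 0.05, 7.17%). H2-Bl had the smallest adjusted p of the 17 there, at 0.207, with a difference that was larger in the WT tumours by 1.59 ± 0.25.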

How the data were processed

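Array signal was deposited for 182058 probe sets and 20 arrays. The authors' deposited values, 3.37 to 15.01, were made before deposit by steps that the sources used here do not state, and were read as log2 signal: log base, background correction and normalization are unknown. Per the labels, RNA was isolated with a Qiagen kit, amplified with a NuGEN Ovation Pico kit and labelled with biotin. Gene names came from the platform annotation, which can be old: 167016 probe sets name 1 gene and were used, 3388 name several and 11654 none. Of the 12364 genes tested, 10789 have a current RefSeq symbol (GRCm38.p6). Sequences are from RefSeq of that build.

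Probe sets were centred over the 20 arrays, and the gene level was the median of its centred probe sets (median 6 per gene) plus the mean of their means. Genes above the 40th percentile on 2 or more of the 5 arrays were tested. Differences were tested with limma 3.58.1 (lmFit, eBayes) in R 4.3.3 (tables read with the package data.table, version 1.17.8), with Benjamini-Hochberg adjustment over all genes tested and a threshold of 0.05; the script was tested on simulated data. The median SE was 0.169, and the number of arrays limits precision. Untreated WT thymocytes entered no test. Figures used Python 3.11.15, pandas 2.3.3 and matplotlib 3.10.9.

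The members, the 34 gene lists and the tests were chosen with earlier results of these data known. The rule for named genes took Gfi1 and Notch1 by probe sets; up to 15 genes each way past the threshold without overlap, filled to 10 by p and then said not to pass; up to 4 members of smallest p in each list described; and a fixed set of T-cell and Notch genes. Defining cell markers are named too, and some members that show a list or the cell cycle (Ccnd1, Bcl2) and all genes said to be picked were chosen after their values were seen. The alternatives were other sets of arrays in the fit, quantile normalization, the probe set summary and centring, the filter, eBayes settings, the replicate number as a block, and each array left out; leaving out each KO Notch array was added after the data were seen. No probe set used here names Trp53 or Bax.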

Additional observations from a re-analysis of the deposited data

Results flagged for a closer look

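One probe set outside the comparisons, 10510205 on the array, names several genes and was therefore left out of the gene levels. It was at 10.03 and 10.40 in the Notch tumours, at 5.28, 5.76 and 5.22 in the ENU tumours and at 6.08 and 6.82 in untreated WT thymocytes. The difference was 4.79 ± 0.25 (SE), higher in both Notch tumours than in all 3 ENU tumours (limma over all probe sets, adjusted p = 0.033). It was the 1 probe set of the 3388 with several names that passed, and none of the 11654 without a name did, with 1035 of those at an unadjusted p under 0.05. It is given because it is a signal in data outside the main measurement that exceeds the level in the comparison group.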

How the results depend on the processing

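Counts of genes past the threshold (12 higher, 5 lower) and of list members past it (2) moved with the processing. They were 2, 1 and 0 in a fit on all 10 tumour arrays, and 105, 165 and 19 in one on all 20 arrays. The spread in the second fit was estimated from thymocyte arrays as well as tumours, so it is not that of tumours alone. Lower genes numbered 3 after quantile normalization and 3 with no filter, 8 with the mean of the probe sets, 9 with centring on the 5 arrays and 8 with trend and robust estimation, and 1 list member passed with a filter at the 60th percentile. The cause was not tested. Leaving out each array in turn gave 0 to 7 higher, 0 to 6 lower and 0 to 1 list members; with a lone Notch array it is assumed to vary like the ENU tumours. Over all alternatives, the 17 genes had 218 values, of which 111 kept the call, 107 lost it and none changed sign. With an array left out the sign could not change, since the groups did not overlap in these genes. Nor could it where only the filter, the eBayes settings or the other arrays in the fit changed. The other named genes gave 2050 values, of which 29 passed and 23 changed sign. In the KO check, genes of the same sign numbered 11 in all, 11 without KO Notch 1 and 7 without KO Notch 2.

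With the replicate number as a block the counts were 2 higher, 2 lower and 0 list members. The numbers do not pair these tumours: only 2 numbers are shared, and deviations from the group means of tumours with the same number correlated at -0.14 (1) and -0.16 (2) across genes.

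Probe sets near background, whose genes were not tested, and 2 arrays against 3 limit what these counts show.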

Other observations

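Genes with large differences that no list held, picked after their values were seen, included several of other tissues. Glp1r, the receptor for the gut hormone GLP-1, was at 6.80 and 7.64 in the Notch tumours and at 10.91, 11.60 and 9.51 in the ENU tumours, with thymocytes at 6.81 (difference -3.45 ± 0.62, SE; limma, adjusted p = 0.131). Gpnmb, a glycoprotein of pigment cells, osteoclasts and macrophages, was at 8.46 and 8.30 against 10.75, 11.49 and 10.49, with thymocytes at 7.71 (difference -2.53 ± 0.30, limma, adjusted p = 0.0692). Atp6v0d2, a proton pump subunit of osteoclasts and macrophages, was at 7.46 and 7.30 against 10.09, 10.48 and 9.01 (difference -2.48 ± 0.42, limma, adjusted p = 0.126). On both Notch arrays Glp1r and Atp6v0d2 lay below the filter level, so their dim side may be background. For Glp1r, Gpnmb and Atp6v0d2 the ENU tumours stood above both the Notch tumours and thymocytes. The macrophage and dendritic cell list, at 9.53 to 9.73 in the ENU tumours and 8.84 to 8.91 in the Notch tumours, moved with them, and its part in these values was not tested.

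Of the 122 genes higher without overlap and by more than 2-fold in the Notch tumours, 3 that did not pass are given here, also picked after their values were seen. Tead1, the DNA-binding partner of the Hippo pathway's YAP, was at 10.57 and 9.34 against 7.76, 7.04 and 7.17, with thymocytes at 6.88 (difference 2.63 ± 0.40, limma, adjusted p = 0.104). Tle4, a co-repressor related to Tle1, was at 9.77 and 8.34 against 6.38, 6.59 and 6.47, with thymocytes at 9.73 (difference 2.58 ± 0.40, limma, adjusted p = 0.108). Smad7, an inhibitor of TGF-beta signalling, was at 9.44 and 8.70 against 7.23, 7.10 and 7.38, with thymocytes at 8.68 (difference 1.83 ± 0.24, limma, adjusted p = 0.0806). Tead1 was thus above thymocytes in the Notch tumours, while Tle4 and Smad7 were below thymocytes in the ENU tumours. On every ENU array these 3 genes lay below the filter level, so their dim side may be background.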
